A study of Mus musculus with 11 samples.

Results

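Histones are the proteins that DNA is wound around. The histone genes of the mouse, as measured here in the ribosome-bound RNA of Purkinje cells, are 85 of the 55421 genes listed per library. They were taken by symbol: every gene whose symbol starts with Hist1h, Hist2h, Hist3h, Hist4h, H2af or H3f, and H1f0 and H1fx, with pseudogene symbols ending in ps left out. By symbol 69 are replication-dependent genes (Hist1h to Hist4h) and 16 are variant genes, one of which, H3f3aos, is named as an antisense transcript of H3f3a. The family was selected on a measured value, since Hist2h3c2 was already known to be higher in knockout than in control libraries, so the values of Hist2h3c2 in that comparison are given as a description with no test, and the counts over the family support nothing on their own.

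Replication-dependent histone genes lie in clusters, have no introns in most cases and are transcribed mainly in S phase, when new DNA is packed. Their mRNAs mostly end in a stem-loop in place of a poly(A) tail, although some of them also make polyadenylated transcripts in cells that no longer divide. Variant histones such as H3.3, H2A.Z and macroH2A are made throughout the cell cycle from ordinary polyadenylated mRNAs. Neurons such as Purkinje cells, the output neurons of the cerebellar cortex, rely on variant histones to replace histones after their last division.

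The data are RNA sequencing counts of RNA pulled down with tagged ribosomes from whole cerebellum of mice at postnatal day 56, 1 library per animal. The 4 knockout (KO) animals had the genotype Pcp2Cre, Tie2flox/flox, Rpl22HA/HA and the 7 control (WT) animals Pcp2Cre, Rpl22HA/HA, so all 11 carried the Cre and the tagged ribosomal protein. The Cre is driven by the Pcp2 promoter, and Tie2, encoded by Tek, is an angiopoietin receptor; the comparison asks how the RNA on Purkinje cell ribosomes differs without it. The labels give 3 batches, with 2 KO and 1 WT libraries in batch 1, 1 and 1 in batch 2, and 1 and 5 in batch 3. The labels tag each animal and do not say whether animals came from separate litters, so the p-values measure the spread between these libraries.

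Reads counted in genes numbered 2583227 to 4199299 in KO and 4087197 to 5142671 in WT libraries. Tek had 0 to 14 reads in KO and 0 to 40 in WT libraries and a log2 fold change of 0.87 ± 0.95 (SE; adjusted p = 0.522 by edgeR's quasi-likelihood test), so it does not check the labels. All 20 Purkinje cell markers were detected, with summed CPM (read counts scaled to a common library total) of 7516 to 10330 in KO and 7856 to 9155 in WT, and 4 were called higher and 2 lower in KO. Over all tested genes 10.9% were called higher and 13.4% lower. Markers of other cells passed this share of higher calls in every list except endothelial and mural cells. Of those tested, 10 of 15 granule cell, 9 of 17 Bergmann glia and astrocyte, 4 of 17 oligodendrocyte, 1 of 2 oligodendrocyte precursor, 3 of 10 microglia and 1 of 13 endothelial and mural cell genes were higher in KO. None was lower except 1 of the Bergmann glia and astrocyte genes, Sept4. The summed granule cell markers ranged from 560 to 1646 CPM in KO and 405 to 877 CPM in WT. The sums were 1276 to 2254 and 1183 to 1459 CPM for Bergmann glia and astrocytes, 458 to 1138 and 385 to 856 CPM for oligodendrocytes, 3.06 to 32.8 and 3.91 to 10.45 CPM for their precursors, 33.2 to 134.8 and 39.5 to 69.98 CPM for microglia, and 61.2 to 209 and 66.99 to 235 CPM for endothelial and mural cells, KO before WT in each pair. No marker of any list was at 0 in all 11 libraries. The part of these markers in the histone results was not tested. Depth was entered only as library total in an added fit, given further on. Totals were lower in most KO libraries, so that fit cannot fully separate depth from genotype. In such bulk samples fewer cells of a type and less RNA per cell cannot be told apart.

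Some histone genes have near-identical copies, and the promoters of an H3 pair in the Hist2 cluster on chromosome 3 are printed to show how alike they are. Between 7.91% and 10.6% of counted alignments per library fell in several places and were assigned to no gene. This share was higher in KO than in WT libraries of the same batch. It was 10.6% and 10.25% against 9.405% in batch 1 and 8.827% against 8.556% in batch 2. In batch 3 it was 9.391% against 7.911% to 8.697%. The part of this difference in the histone results was not tested. The 300-base RefSeq windows around the gene starts of Hist2h3c2 (chr3:96239078-96239377, minus strand) and Hist2h3c1 (chr3:96246435-96246734, plus strand; both GRCm38.p6) were shifted against each other and differed in 1 of the 285 bases then compared. The genes are separated by 7557 bases. Both encode histone H3. The windows are printed 5′ to 3′, with the CCAAT letters in capitals.
Hist2h3c2: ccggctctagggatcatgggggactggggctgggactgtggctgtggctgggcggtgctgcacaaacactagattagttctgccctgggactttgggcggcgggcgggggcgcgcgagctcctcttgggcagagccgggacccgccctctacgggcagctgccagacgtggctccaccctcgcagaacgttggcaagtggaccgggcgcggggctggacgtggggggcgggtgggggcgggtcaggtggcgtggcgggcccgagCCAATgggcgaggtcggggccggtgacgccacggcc
Hist2h3c1: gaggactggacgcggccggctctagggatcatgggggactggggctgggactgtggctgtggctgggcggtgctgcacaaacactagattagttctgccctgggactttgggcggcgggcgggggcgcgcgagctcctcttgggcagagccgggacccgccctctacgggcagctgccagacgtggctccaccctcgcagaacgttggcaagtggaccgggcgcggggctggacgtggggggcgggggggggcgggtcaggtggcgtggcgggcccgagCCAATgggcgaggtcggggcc
Hist2h3c2 had 126 reads over the 11 libraries and Hist2h3c1 had 0, as did Hist2h3b, a further H3 gene 21305 bases beyond Hist2h3c1. Among the 73 members with a window, 5 pairs matched in at least 95% of at least 200 bases. The other 4 pairs were Hist1h2bq with Hist1h2br, Hist1h4j with Hist1h4k, Hist1h4m with Hist1h4n, and Hist2h2aa1 with Hist2h2aa2. Their members had 0 to 12 reads in total. The windows lie mostly upstream of the genes, so their likeness describes promoters; transcript sequences were not compared.

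The linker histone genes Hist1h1c and Hist1h1e, both in the Hist1 cluster on chromosome 13, are shown because they behaved differently across the libraries, as described further on. Linker histones bind the DNA between nucleosomes. Their windows, chr13:23738557-23738856 on the plus strand and chr13:23622509-23622808 on the minus strand (GRCm38.p6, RefSeq), have the letters CCAAT and, where present, TATAAA in capitals.
Hist1h1c: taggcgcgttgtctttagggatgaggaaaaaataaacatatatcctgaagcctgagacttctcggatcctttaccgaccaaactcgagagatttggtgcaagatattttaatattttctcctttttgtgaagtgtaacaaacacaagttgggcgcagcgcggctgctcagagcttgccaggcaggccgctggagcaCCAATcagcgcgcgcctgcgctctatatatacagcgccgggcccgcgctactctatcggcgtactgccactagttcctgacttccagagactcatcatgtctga
Hist1h1e: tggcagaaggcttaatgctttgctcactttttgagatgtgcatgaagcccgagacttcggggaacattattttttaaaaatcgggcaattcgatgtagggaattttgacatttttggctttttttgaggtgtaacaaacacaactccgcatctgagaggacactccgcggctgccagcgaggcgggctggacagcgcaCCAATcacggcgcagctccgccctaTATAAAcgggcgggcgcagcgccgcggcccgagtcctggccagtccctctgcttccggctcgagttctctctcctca
Both windows held CCAAT and the Hist1h1e window also held TATAAA, letters that the Hist1h1c window lacked on either strand. Over the family the CCAAT motif, the TATAAA motif and the octamer ATTTGCAT were searched on both strands, and no motif contains another. CCAAT was found in 52 of 61 replication-dependent windows (85.2%) and 8 of 12 variant windows (66.7%), against 37.4% of all 32851 windows. By type it was in 100% of the H1, H2A, H2B and H3 windows but in 3 of 12 H4 windows (25%). TATAAA was found in 35 of 61 (57.4%) and 1 of 12 (8.33%), against 13.6% of all windows. The octamer ATTTGCAT was in 7 of 17 H2A and 6 of 16 H2B windows and in 0 of the 6 H1, 10 H3 and 12 H4 windows. It was in 1 of 12 variant windows (8.33%), against 1.74% of all windows. A match is a run of letters and not a measured site.

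Few of the replication-dependent genes accounted for most of their reads. Of the 69, 21 had 0 reads in all 11 libraries and 27 had 1 to 19 reads in total. A count of 0 allows up to 0.0659 CPM pooled over the libraries (3 counts, counting error only). Reads that fell in several places were assigned to no gene, so for near-identical copies a 0 sets no such limit. The 4 most counted took 71.9% of the 11028 replication-dependent reads. Per kilobase of RefSeq gene span, Hist3h2a (an H2A gene) had 170.3 ± 20.5 CPM in KO and 113.5 ± 20.4 CPM in WT, and its neighbour Hist3h2ba (an H2B gene) 57.0 ± 17.5 CPM in KO and 97.8 ± 22.3 CPM in WT (SD, n = 4 and 7). Among genes with a span of at most 1 kilobase the next WT levels on this per-length scale were 35.9 ± 24.4 CPM for Hist1h4d and 25.5 ± 11.4 CPM for Hist1h4i, both H4 genes, 25.1 ± 8.44 CPM for Hist1h1c and 18.9 ± 14.6 CPM for Hist1h1e. The SDs of these 4 overlap and no test of their order was made, so it is not resolved. The WT means of Hist1h4d and Hist1h1e also mix batches. Before scaling by length, their WT libraries had 15.4 to 30.5 and 14.6 to 33.7 CPM in batch 3. In batches 1 and 2 they had at most 2.53 and 1.92 CPM. Hist3h2a and Hist3h2ba lie above these 4 genes and do not differ from each other in WT beyond their SDs. Hist2h3c2 was far down this order in WT, at 1.05 ± 0.523 CPM per kilobase, and at 12.7 ± 6.31 CPM per kilobase in KO. Reads that fell in several places are not in these values. The place of a gene with near-identical copies is thus that of its assigned reads alone. The variant genes held 36983 reads, and 6 of them took 90.9% of these. Their RefSeq spans include introns, so they are not ranked per length.

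**Figure D1:**
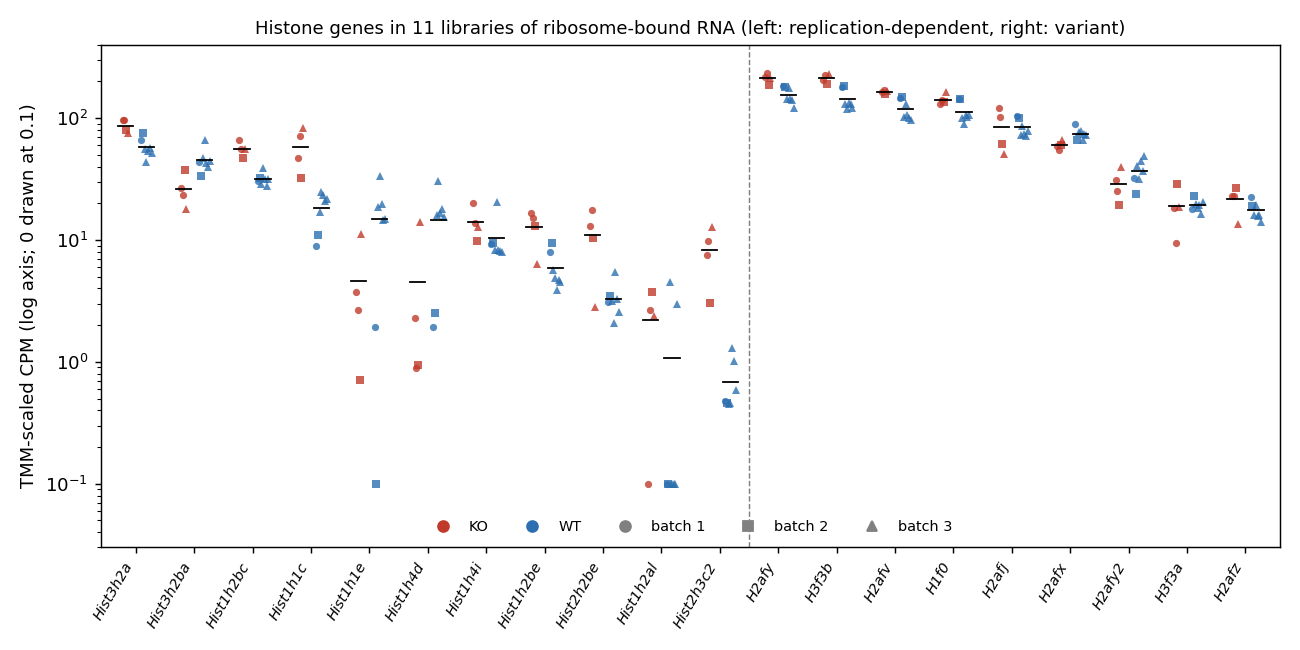
TMM-scaled CPM (log axis) of the 20 histone genes that passed the low-count filter, for 4 KO (red) and 7 WT (blue) libraries with batch as the marker shape; black bars are group means and a value of 0 is drawn at 0.1. Leaving aside Hist2h3c2, on which the family was chosen, all KO points lie above all WT points in 6 of 19 genes and below in 0. These 6 include Hist1h1c and Hist1h2bc. Over all tested genes the shares are 6.20% and 6.74%. Hist1h1e and Hist1h4d separate by batch.

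After the low-count filter 20 of the 85 members could be tested, 11 replication-dependent and 9 variant, and these held 98.3% of all histone reads. Leaving aside Hist2h3c2, on which the family was chosen, 19 were tested. Of these, 3 were called higher in the KO libraries (Hist1h1c, Hist1h2bc and H3f3b) and 0 lower (edgeR's quasi-likelihood test in a model of batch and genotype, adjusted over all 13375 tested genes). Among all tested genes 10.9% were called higher, 13.4% lower and 24.4% in either direction. At an unadjusted p under 0.05 there were 6 higher and 3 lower of the 19, beside 39.5% of all tested genes in either direction. The Wald test of DESeq2 called 6 higher and 1 lower (Hist3h2ba) where it called 31.2% of all genes, and limma-voom called 3 and 0 where it called 20.6%. Without KO M456 or WT M379 only Hist1h1c was called, beside 2.43% and 3.93% of all genes. Without WT M386 or WT M476 there were 7 of 19 members called, beside 34.8% and 30.7% of all genes, and without KO M390 8 of 21, beside 33.8%. With library total as covariate 0 members and 0% of all genes were called. The median log2 fold change was 0.34 over the 19 members, 0.53 over the 10 replication-dependent and 0.05 over the 9 variant ones, beside -0.02 over all tested genes. In 6 of the 19 all KO values lay above all WT values and in 0 they lay below, beside 6.20% and 6.74% of all tested genes.

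Among replication-dependent genes the H3 gene Hist2h3c2 (ENSMUSG00000081058, chr3:96238479-96239127 in GRCm38) had the largest fitted fold change. It had 7.50 CPM (26 reads), 9.73 CPM (33 reads), 3.06 CPM (13 reads) and 12.8 CPM (32 reads) in KO libraries F371, M374, M390 and M456, against 0.450 to 1.30 CPM with a median of 0.479 CPM (2 to 6 reads) in WT libraries. The groups did not overlap, and M390 of batch 2 was the lowest KO library. The fitted log2 fold change was 3.77 ± 0.54 (SE), 3.48 without KO M456, and the within-batch log2 ratios were 3.22, 1.89 and 3.39 in batches 1, 2 and 3. These values are a description for the reason given above, and they hold only reads assigned to this gene.

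Hist1h1c (ENSMUSG00000036181, chr13:23738807-23739531 in GRCm38), which encodes a linker histone, rose in KO. Its values were 47.3, 70.7, 32.0 and 83.5 CPM in KO F371, M374, M390 and M456, and 8.87 to 24.5 CPM with a median of 20.7 CPM in WT. Every KO library was above every WT library, and within WT the lowest values were those of batches 1 and 2 (8.87 and 11.05 CPM). The fitted log2 change was 2.08 ± 0.24 (SE, edgeR quasi-likelihood test, adjusted p = 0.00123), and the within-batch ratios of 2.67, 1.49 and 1.93 shared its sign. Its call held with each library left out in turn and was lost with library total as covariate (log2 fold change 2.00, adjusted p = 0.231; over all alternatives 7.4e-13 to 0.231).

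Hist1h2bc (ENSMUSG00000018102, chr13:23684199-23692480), an H2B gene, also rose. KO libraries F371, M374, M390 and M456 had 66.6, 55.7, 46.6 and 55.9 CPM, and WT libraries 27.7 to 39.1 CPM with a median of 31.4 CPM. The groups did not overlap, and the highest WT value was that of M476. The fitted log2 change was 0.81 ± 0.19 (SE, edgeR adjusted p = 0.0081), with within-batch ratios of 1.01, 0.51 and 0.81. The call was lost without WT M379 (0.72 on the log2 scale, adjusted p = 0.0715), without KO M456 (0.80, adjusted p = 0.0955) and with library total as covariate (0.63, adjusted p = 0.354; range of p over alternatives 0.000305 to 0.354).

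The H2A and H2B genes of the Hist3 cluster on chromosome 11 had fold changes of opposite sign, and neither passed. Hist3h2a had 95.5, 95.5, 79.3 and 75.9 CPM in KO F371, M374, M390 and M456, against 43.9 to 75.7 CPM with a median of 55.4 CPM in WT. Its KO values all lay above the WT ones, with KO M456 just above WT M386 (log2 fold change 0.41 ± 0.15, SE, edgeR adjusted p = 0.0554). Hist3h2ba, 5312 bases away, had 26.8, 23.3, 37.2 and 18.0 CPM in the same KO libraries, against 33.1 to 66.3 CPM with a median of 43.6 CPM in WT. KO M390 was inside the WT range, the within-batch ratios were -0.79, 0.16 and -1.39, and the log2 fold change was -0.75 ± 0.27 (SE, adjusted p = 0.0562). Without KO M390, WT M386 or WT M476 both genes passed, Hist3h2a at 0.42 to 0.57 and Hist3h2ba at -0.67 to -1.08 on the log2 scale.

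Other neighbouring H2A and H2B genes have closely spaced starts. Hist2h2be (H2B) and Hist2h2ac (H2A) on chromosome 3 are 191 bases apart. Hist2h2be had 12.98, 17.7, 10.3 and 2.80 CPM in KO F371, M374, M390 and M456, against 2.08 to 5.41 CPM with a median of 3.15 CPM in WT, and KO M456 was inside the WT range. The fit gave 1.21 ± 0.59 on the log2 scale (SE, edgeR adjusted p = 0.136), with within-batch ratios of 2.13, 1.46 and -0.20. Hist2h2ac had 2 reads in KO M456 and 0 in the other 3 KO libraries, and 8 to 28 reads in the 5 WT libraries of batch 3 and 0 in WT M379 and M386. Hist1h2bc has its H2A neighbour Hist1h2ac at 239 bases on chromosome 13, which had 10, 1, 0 and 44 reads in KO F371, M374, M390 and M456 and 0 to 6 in WT libraries.

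The remaining tested replication-dependent genes gave no call. Hist1h2be, an H2B gene, had 16.7, 15.0, 12.9 and 6.39 CPM in KO F371, M374, M390 and M456, against 3.89 to 9.44 CPM with a median of 4.85 CPM in WT (log2 fold change 0.64 ± 0.36, SE, edgeR adjusted p = 0.198). The H4 gene Hist1h4i averaged 14.1 ± 4.21 CPM in KO and 10.3 ± 4.58 CPM in WT (SD, n = 4 and 7), and its WT libraries lay between 7.89 and 9.44 CPM except M476 at 20.6 CPM. Its log2 fold change was 0.41 ± 0.40 (SE, adjusted p = 0.467), and -0.10 with library total as covariate. Hist1h2al, which RefSeq names H2af-ps2 and places outside the Hist1 cluster at chr13:51200084-51203066, had reads in 3 of 4 KO and 2 of 7 WT libraries (log2 fold change 2.40 ± 1.58, SE, adjusted p = 0.277).

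**Figure D2:**
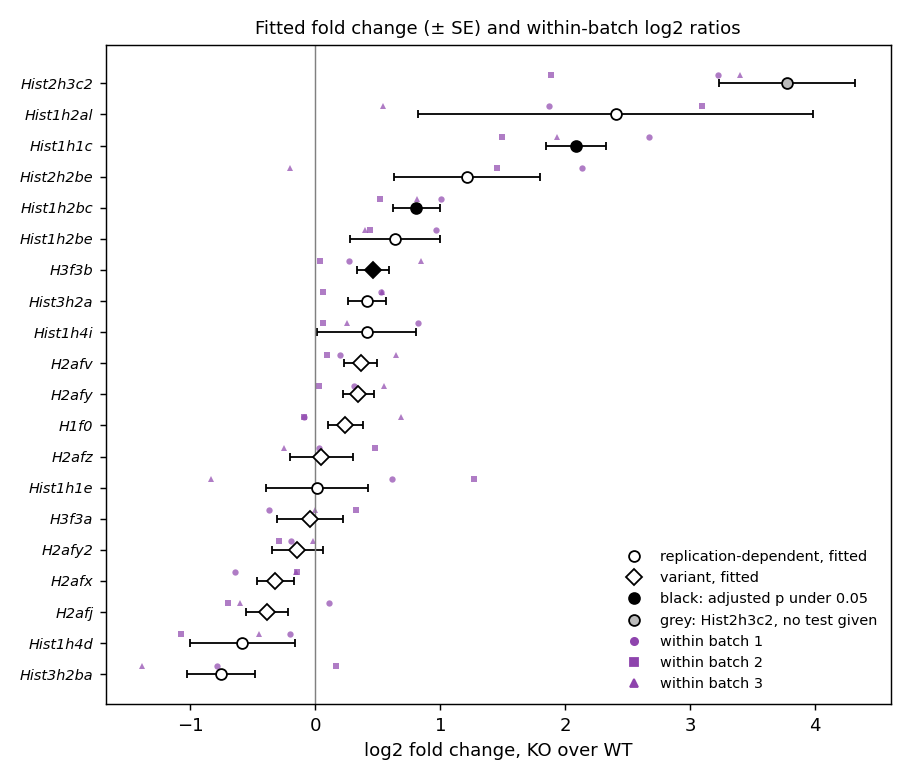
Fitted log2 fold change of KO over WT with its standard error for the 20 tested histone genes (circles replication-dependent, diamonds variant, black where the adjusted p is under 0.05 and grey for Hist2h3c2, which has no test), with the log2 ratio within each batch as small purple markers. The 3 black genes, Hist1h1c, Hist1h2bc and H3f3b, are positive in all 3 batches, with the batch 2 ratio the smallest in each.

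Among the 9 tested variant genes 1 was called. H3f3b (ENSMUSG00000016559, chr11:116021961-116026039), a gene for the replacement histone H3.3, rose in KO, with 205, 228, 189 and 229 CPM in F371, M374, M390 and M456, against 119 to 184 CPM with a median of 130 CPM in WT. The groups did not overlap, and the highest WT libraries were those of batches 1 and 2 (180.0 and 184 CPM), next to KO M390. The fitted log2 change was 0.46 ± 0.13 (SE, edgeR adjusted p = 0.0169), with within-batch ratios of 0.27, 0.04 and 0.85. The call was lost without WT M379 (0.57 on the log2 scale, adjusted p = 0.0504), without KO M456 (0.17 on the log2 scale, adjusted p = 0.44) and with library total as covariate (0.08 on the log2 scale, adjusted p = 0.845; range 0.00191 to 0.845). H3f3a, the other main gene for H3.3, averaged 18.8 ± 7.97 CPM in KO and 19.3 ± 2.13 CPM in WT (SD, n = 4 and 7), with a log2 fold change of -0.04 ± 0.27 (SE, adjusted p = 0.925). KO M374 had its lowest level (9.43 CPM) and KO M390 its highest (28.9 CPM).

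H2A variants were split in sign. H2afy, which encodes macroH2A, a variant with a large extra domain, had 217, 235, 185 and 213 CPM in KO F371, M374, M390 and M456, against 122 to 183 CPM with a median of 143 CPM in WT. H2afv, a gene for H2A.Z, had 164, 169, 158 and 168 CPM in these KO libraries, against 96.4 to 149 CPM with a median of 106 CPM in WT. In both genes the KO values lay above all WT values, and neither passed (log2 fold changes 0.34 ± 0.12 and 0.36 ± 0.13, SE, edgeR adjusted p = 0.0554 and 0.0517). Both passed without KO M390, WT M386 or WT M476 (0.40 to 0.48), and both were near 0 with library total as covariate (-0.03 and -0.04). H2afz, the other H2A.Z gene, had a log2 fold change of 0.05 ± 0.25 (SE, adjusted p = 0.911). H2afx, whose protein is phosphorylated at DNA breaks, averaged 59.96 ± 4.57 CPM in KO and 74.5 ± 8.05 CPM in WT, and H2afj, another H2A variant gene, 83.6 ± 33.2 and 83.7 ± 13.3 CPM (SD, n = 4 and 7). Their log2 fold changes of -0.32 ± 0.15 and -0.38 ± 0.17 (SE) did not pass (adjusted p = 0.122 and 0.105), and KO libraries of H2afj ran from 50.3 CPM in M456 to 121 CPM in F371. H2afy2, another macroH2A gene, was at -0.14 ± 0.20 and the linker histone gene H1f0 at 0.24 ± 0.14 (SE, adjusted p = 0.631 and 0.218).

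Some replication-dependent genes separated by batch. This comparison was chosen after the values were seen, and it uses the same fit, with batch 3 set against the mean of batches 1 and 2. Of the 20 tested members 4 were higher in batch 3 (Hist1h1e, Hist1h4d, Hist1h1c and H2afy2) and 1 lower (H2afj), where 11% and 6.36% of all tested genes were. Hist1h1e had 11.2 CPM in KO M456 and 14.6 to 33.7 CPM in the 5 WT libraries of batch 3, and 3.75, 2.65 and 0.706 CPM in the KO and 1.92 and 0 CPM in the WT libraries of batches 1 and 2. Batch 3 and the other batches did not overlap (log2 difference 4.21 ± 0.58, SE, edgeR adjusted p = 0.000375). Hist1h4d had 14.0 CPM in KO M456 and 15.4 to 30.5 CPM in WT of batch 3, and 0.884 to 2.31 CPM in KO and 1.92 and 2.53 CPM in WT of the other batches (3.19 ± 0.41, adjusted p = 0.000217). Hist1h1c was higher in batch 3 by 0.99 ± 0.24 and H2afy2 by 0.62 ± 0.20, and H2afj was lower, at -0.54 ± 0.16 (log2, SE, adjusted p = 0.0112, 0.0401 and 0.0283). Hist1h1e and Hist1h4d were called with each library left out in turn. Hist1h1c lost its call without WT M379 or KO M456. H2afj lost it without KO F371, KO M456, WT M386, WT F473, WT M477 or WT M479, and H2afy2 without KO M390, KO M456, WT M379, WT M386, WT F473, WT M477, WT M479 or WT M480.

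**Figure D3:**
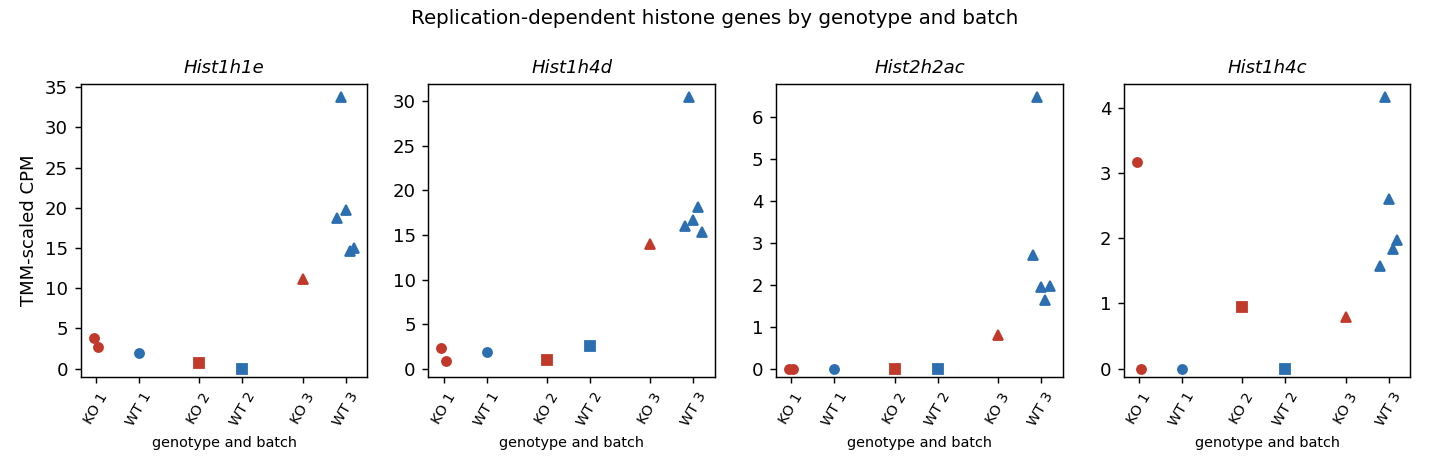
TMM-scaled CPM of Hist1h1e, Hist1h4d, Hist2h2ac and Hist1h4c in each library by genotype and batch (KO red, WT blue; marker shape as batch). Hist1h1e and Hist1h4d are at 11.2 and 14.0 CPM or more in batch 3, and at most 3.75 and 2.53 CPM in batches 1 and 2.

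Batch 3 holds 1 of the 4 KO libraries and 5 of the 7 WT libraries, so pooled group means mix genotype with batch. Hist1h1e averaged 4.57 ± 4.58 CPM in KO and 14.8 ± 11.4 CPM in WT (SD, n = 4 and 7), yet its log2 fold change with batch in the fit was 0.01 ± 0.41 (SE, edgeR adjusted p = 0.986), and -1.75 with no batch term. Within batches the log2 ratios were 0.61, 1.27 and -0.84. Hist1h4d gave -0.58 ± 0.42 (SE, adjusted p = 0.321). Hist2h2ac, an H2A gene under the filter, had 0 reads in every library of batches 1 and 2, and in batch 3 it had 2 reads in KO M456 and 8 to 28 in WT. The H4 gene Hist1h4c had 2 reads in KO M456 and 7 to 18 in WT of batch 3. In batches 1 and 2 it had 11, 0 and 4 reads in KO F371, M374 and M390 and 0 in both WT libraries. What the batches differ in beyond their number is not given in the sources used here.

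Summed over all 69 replication-dependent genes, KO libraries F371 and M374 had 319 and 312 CPM against 181 CPM in WT M379 in batch 1, KO M390 had 247 CPM against 182 CPM in WT M386 in batch 2, and KO M456 had 330 CPM against 212 to 296 CPM in the WT libraries of batch 3. Each KO library was above the WT libraries of its own batch, and WT M476 was above KO M390 of another batch. The within-batch log2 ratios were 0.81, 0.44 and 0.50. The variant sums were 973 and 993 CPM in KO against 918 CPM in WT in batch 1, 864 against 889 CPM in batch 2, and 963 against 679 to 750 CPM in batch 3, which gives log2 ratios of 0.10, -0.04 and 0.45. Without KO M456 the mean ratio over batches was 0.62 for the replication-dependent and 0.03 for the variant sum, against 0.58 and 0.17 with it. The replication-dependent sum includes Hist2h3c2, on which the family was chosen (3.06 to 12.8 CPM in KO, 0.450 to 1.30 CPM in WT). It rests mostly on few genes. Hist1h1c, Hist1h2bc and Hist3h2a averaged 58.4, 56.2 and 86.5 CPM in KO against 18.2, 31.6 and 57.7 CPM in WT. Hist3h2ba went the other way, at 26.3 against 45.2 CPM. No test was made of the replication-dependent or variant sums.

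**Figure D4:**
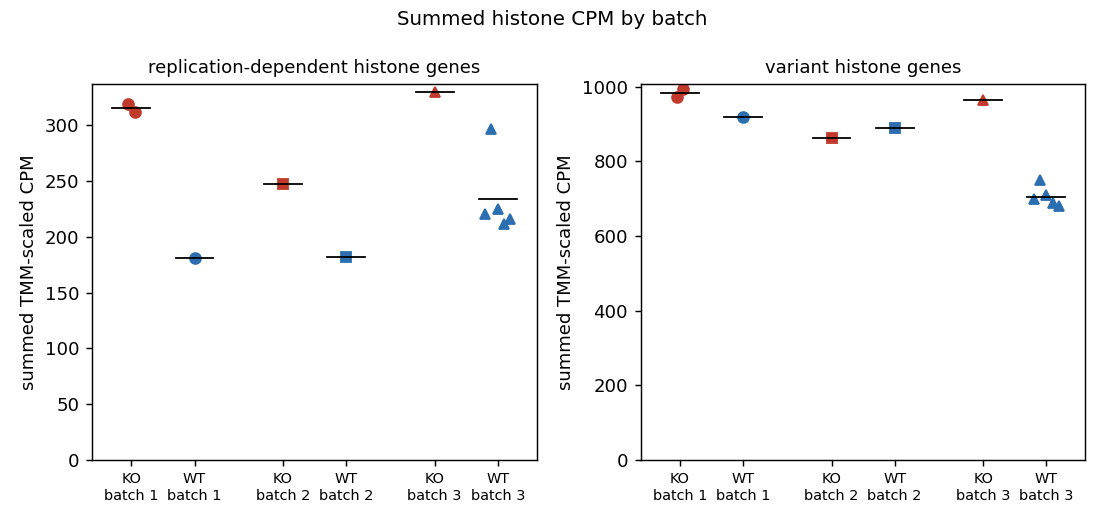
Summed TMM-scaled CPM of all 69 replication-dependent (left) and all 16 variant histone genes (right) in each library, KO left of WT within each batch; bars are means. The replication-dependent sums, which include Hist2h3c2 and rest mostly on few genes, are higher in KO in all 3 batches (for example 247 against 182 CPM in batch 2). The variant sums of batch 2 are 864 against 889 CPM.

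Members under the filter added few reads. The 58 untested replication-dependent genes together had 16 to 86 reads in KO and 19 to 131 reads in WT libraries. Among the 7 untested variants the linker histone gene H1fx had 17, 21, 2 and 8 reads in KO F371, M374, M390 and M456 and 0 to 4 reads in WT libraries, with KO M390 inside the WT range. With no low-count filter H1fx and Hist1h2ac were also called higher, beside 9.78% of all genes called in either direction. Of the KO reads of Hist1h2ac, 44 were in M456 and 0 in M390. H3f3aos had 0 reads in KO and 0 to 4 in WT libraries, and since no source gives the strand setting its reads cannot be told from those of H3f3a.

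Of 23 tested genes that make and end histone mRNAs, 3 were called higher and 3 lower in KO, beside 10.9% and 13.4% of all tested genes. Lsm11 and Lsm10 encode Sm-like proteins of the U7 particle that guides the cut at the end of stem-loop histone mRNAs, and Cpsf3 encodes the nuclease that makes the cut with its partner Cpsf2. Lsm11 rose by 0.70 ± 0.11 and Cpsf2 by 0.62 ± 0.12, while Cpsf3 fell by 0.58 ± 0.12 and Lsm10 fell by 1.94 ± 0.45 (log2, SE, edgeR adjusted p = 0.00206, 0.00405, 0.00446 and 0.0078). Lsm10 rests on batches 1 and 3, with within-batch ratios of -2.72, -0.26 and -2.43. Slbp, whose protein binds the stem-loop, averaged 103 ± 29.7 CPM in KO and 105 ± 25.6 CPM in WT (log2 fold change -0.29 ± 0.15, SE, adjusted p = 0.159).

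Histone chaperones carry histones to and from DNA. Of 30 tested genes of histone chaperones and deposition, 11 were called higher and 1 lower, where 10.9% and 13.4% of all tested genes were. The calls of this and the other gene lists are those of the main fit alone and were not followed through the alternatives. Without KO M456 or WT M379, 2.43% and 3.93% of all genes were called, and with library total as covariate 0%. The acidic chaperone gene Anp32b rose by 1.31 ± 0.23 and the nucleosome assembly genes Nap1l1 and Nap1l3 by 0.78 ± 0.16 and 0.61 ± 0.12, and Vps72, whose protein helps to deposit H2A.Z, fell by 1.16 ± 0.20 (log2, SE, edgeR adjusted p = 0.00283, 0.00416, 0.00424 and 0.00243). Vps72 had 33.8 to 55.0 CPM in KO and 69.8 to 114 CPM in WT, with no overlap and within-batch ratios of -1.39, -0.34 and -1.50. Anp32b rose least in batch 2, with within-batch ratios of 1.35, 0.19 and 1.84, and its KO and WT values overlapped. Nap1l1 had ratios of 0.86, 0.22 and 1.04 and Nap1l3 of 0.83, 0.42 and 0.55, both without overlap. The chaperone list's median log2 fold change was 0.14. Genes of S phase and cell division, when replication-dependent histones are normally made, had 0 of 20 called higher and 2 lower, against the same 10.9% and 13.4%. These were Cdc20 at -1.28 ± 0.21 and Mcm5 at -1.43 ± 0.50 (log2, SE, edgeR adjusted p = 0.00233 and 0.0493), with a list median of -0.15. Cdc20 fell least in batch 2, with within-batch ratios of -2.01, -0.31 and -1.24. Its highest KO value, 108 CPM, lay inside the WT range of 103 to 158 CPM. The division markers Mki67 and Top2a were under the filter, with 0 to 4 and 0 to 3 reads in KO and 0 to 8 and 0 to 7 reads in WT libraries.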

How the data were processed

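The authors deposited raw read counts per gene, 1 file per library; per the submitters' processing notes STAR, HTSeq and the build GRCm38 were used. Not given in the sources used here are versions, strand setting and counting options. In all tests and totals, the 5 lines per file that name no gene were left out; as shares of counted alignments, those with several places made up 7.91% to 10.6%, those outside genes 6.11% to 12.05% and ambiguous ones 3.82% to 4.52%. Within a group the closest pair of libraries had a chi-square of 2.4 per degree of freedom, above sampling noise. Limits cover counting error only.

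The test was the quasi-likelihood test of edgeR 4.0.16 (R 4.3.3) after filterByExpr and TMM scaling, with batch and genotype as terms and 7 residual degrees of freedom, two-sided, with Benjamini-Hochberg adjustment over 13375 genes and calls at 0.05. All CPM values are TMM-scaled, and group means are not adjusted for batch. Within-batch log2 ratios of single genes add 0.5 CPM. SE is the fold change over the root of F. RefSeq positions matched 82 members.

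Members and lists were chosen with earlier results of these data known. Named genes are Hist2h3c2 and its copies, called members, members without overlap between groups, the 10 members of each class highest in WT, and up to 4 called genes per list. The rule asked for copies with an identical protein; no protein table was used here, so Hist2h3c1 and Hist2h3b are given by symbol. Alternatives were no batch term, 2 other scalings, 2 other filters, DESeq2 1.42.0, limma-voom (limma 3.58.1), a threshold of 0.1, animals tagged M and each library left out. Leaving out batch 2, the library total as covariate and the batch comparison were added after seeing the data.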

Additional observations from a re-analysis of the deposited data

Results flagged for a closer look

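In 8 of 46 sets of values checked, the highest library lay far from the rest of its group by Dixon's criterion, which chance alone meets in about 1 in 20 groups. WT M476 was the library in 5 of them. It had 39.1 CPM of Hist1h2bc against 27.7 to 32.5 CPM in the other WT libraries, 66.3 CPM of Hist3h2ba against 33.1 to 46.6 CPM, and 20.6 CPM of Hist1h4i against 7.89 to 9.44 CPM. It also had 6.47 CPM of Hist2h2ac against 0 to 2.7 CPM, and a replication-dependent sum of 296 CPM against 181 to 225 CPM. WT M477 had 5.41 CPM of Hist2h2be against 2.08 to 3.45 CPM in the other WT libraries. KO M456, the KO library of batch 3, had 14.0 CPM of Hist1h4d against 0.884 to 2.31 CPM in the other KO libraries, and 0.799 CPM (2 reads) of Hist2h2ac against 0. The causes were not tested.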

How the results depend on the processing

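Counts of called histone genes moved with several choices. Of all members, 4 were called, against 10 with no batch term, 9 without batch 2, 8 by the Wald test of DESeq2, 8 at a threshold of 0.1 and 0 with library total as covariate (edgeR; 4 members at an unadjusted p under 0.05). The shares of all tested genes called were 24.4%, against 25.1%, 34.1%, 31.2%, 35.3% and 0% in that order. Leaving out 1 library gave 1 to 9, beside 2.43% to 34.8% of all genes. Of the replication-dependent genes 3 were called, against 7, 5, 5, 5 and 0 in the same order and 1 to 5 with a library left out. These counts include Hist2h3c2, on which the family was chosen. Without it they were 3, 9, 8, 7, 7 and 0 of all members and 2, 6, 4, 4, 4 and 0 of the replication-dependent ones. With a library also left out they were 1 to 8 of all members and 1 to 4 of the replication-dependent ones. Of the variants 1 was called, against 3, 4, 3, 3 and 0 in the same order and 0 to 4 with a library left out. There were 2 with DESeq2 size factors and 2 with no filter, beside 24.7% and 9.78% of all genes. The 5 members called between batches (17.4% of all genes) were 3 in animals tagged M (12.3%), 8 with the library total as covariate (17.4%) and 3 to 5 with a library left out. The mean log2 ratio of the variant sums was 0.17, against 0.32 unstratified, 0.30 without batch 2 and 0.0278 to 0.30 with a library left out.

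Of 399 alternatives for single genes, 339 kept direction and side of the threshold, 28 gained a call, 9 lost one and 23 turned. Hist2h3c2, on which the family was chosen, gave 21 of the 399, 19 of the 339 and 2 of the 9. These 21 are a description and support nothing. With the library total as covariate H1f0 turned to -0.11, H2afv to -0.0367, H2afy to -0.0323, H3f3a to 0.0317 and Hist1h4i to -0.10. H2afj turned to 0.0033 with no batch term and H2afz to -0.0908 without batch 2. Hist1h1e turned to -1.75 with no batch term, -0.00049 with library totals alone, -0.0083 with no filter, -0.13 in animals tagged M, -0.28 without batch 2 and -0.32 by limma-voom. With 1 library left out H1f0 ranged from -0.0922 to 0.42, H2afz from -0.0907 to 0.23, H3f3a from -0.14 to 0.15 and Hist1h1e from -0.41 to 1.14. The causes were not tested. No paired analysis was possible because KO and WT share no replicate numbers. Library totals were lower in most KO libraries (2583227 to 4199299 reads, against 4087197 to 5142671 in WT), and 65 of 85 members were too low to test.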
